A study of Homo sapiens with 6 samples.

Results

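The subunits of the transcription factor NF-kB and the genes that restrain it were described in MOC2 cells, a line of mouse oral squamous carcinoma, with and without targeting of the gene for HuR. The 10 genes were taken by symbol from the table of counts: the subunit genes Rela, Relb, Nfkb1 and Nfkb2, the inhibitor genes Nfkbia and Nfkbie, Tnfaip3 and its partner Tnip1, and the inhibitor-of-apoptosis genes Birc2 and Birc3. All 10 had a row among the 21872 rows of the table, and all 10 were among the 12293 genes with enough counts to test. The libraries were 3 of HuR knockout cells, which had received lentiviral particles carrying CRISPR/Cas9 against HuR, and 3 of control cells, which had received control particles. The labels' protocols speak of 1 isolated clone lacking HuR, and the design text of triplicates. Separate clones are not mentioned for the 3 knockout libraries, so the p-values rest on a spread between libraries that may be partly technical. The titles call the knockout libraries knockdown. The labels name human as the species, whereas the series title and the gene symbols are those of mouse.

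NF-kB dimers are held in the cytoplasm by IkB proteins until the IKK kinases mark these for destruction, after which the dimers enter the nucleus. In the canonical branch the dimer is mainly RelA with p50, the product of Nfkb1. In the non-canonical branch it is RelB with p52, the product of Nfkb2. Many of the genes that NF-kB switches on act back on it: Nfkbia and Nfkbie encode the inhibitors IkB-alpha and IkB-epsilon, Tnfaip3 encodes the ubiquitin-editing enzyme A20, and Birc3 encodes the ubiquitin ligase cIAP2. HuR, the product of Elavl1, binds AU-rich elements in mRNAs and is known to stabilise many of them.

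The libraries held between 16158516 and 21294330 counts. Elavl1 mRNA had 116, 114 and 105 CPM (counts scaled to a fixed library total) in the knockout libraries, in the order 1 to 3, and 107, 120 and 117 CPM in the control libraries, a log2 fold change of -0.04 (SE 0.11, edgeR adjusted p = 0.82). Editing need not alter the amount of an mRNA, so this value does not check the labels. Knockout library 3 stood apart, with a correlation of log2 CPM of 0.924 and 0.931 with the other knockout libraries, which correlated with each other at 0.978 (across genes, which are not independent). The summed level of 8 epithelial markers was 3944 to 6363 CPM in knockout and 7273 to 8880 CPM in control, and 5 of the 7 tested fell. Those that fell were Epcam, Cdh1, Krt8, Krt18 and Sfn. Krt19, which made up most of the sum in knockout, was at 2594 to 4161 CPM in knockout and 2702 to 2997 CPM in control (edgeR adjusted p = 0.342). Of the squamous keratin pair, Krt14 was at 19.2 to 227 CPM in knockout and 338 to 589 CPM in control (edgeR adjusted p = 0.0873), and Krt5, with too few counts to test, was at 0.184 to 2.29 CPM in knockout and 0 to 0.0491 CPM in control. The sum of 8 fibroblast markers was 176 to 214 CPM in knockout and 3.00 to 7.82 CPM in control, and 2 of the 3 tested rose, Col1a1 and Pdgfrb. These 2 made up nearly all of the knockout sum, with Col1a1 at 119 to 199 CPM and Pdgfrb at 12.6 to 51.9 CPM in knockout. Pdgfra did not pass (edgeR adjusted p = 0.595). Col1a2, Dcn, Postn and Thy1 had too few counts to test, and Lum was at 0 in every library. The sum of 10 leukocyte markers was 2.01 to 37.5 CPM in knockout and 2.60 to 6.60 CPM in control. The highest of these values came from Cd68 in knockout library 3, and the leukocyte genes Adgre1 and Itgam were at 0 in all 6 libraries. The sum of 6 endothelial markers was 0.545 to 1.96 CPM in knockout and 0.540 to 0.729 CPM in control. The part of these marker differences in the values below was not tested.

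Of the 10 NF-kB genes, 6 fell in HuR knockout cells: Relb, Nfkb1, Nfkb2, Nfkbie, Tnfaip3 and Birc3. Across all genes tested, 15.4% were lower by the same test (edgeR's quasi-likelihood test, Benjamini-Hochberg adjusted p under 0.05). None of the 10 was called higher by that test, against 20.3% of all genes tested. Rela, Nfkbia, Tnip1 and Birc2 did not pass. An unadjusted p under 0.05 was reached by 7 of the 10, the seventh being Nfkbia, and by 5702 of all 12293 genes tested. DESeq2 called 1 of the 10 higher, which was Nfkbia, where it called 23.1% of all genes it tested higher. The median log2 fold change of the 10 genes was -0.68, beside 0.03 over all genes tested. In CPM, the knockout libraries all lay below the control libraries for the 6 genes that fell, where 27.9% of all genes tested were apart in this direction. They all lay above control for Birc2 alone of the 10, where 29.7% of all genes tested were apart in this direction. Values are given in the order of libraries 1 to 3 throughout. The decreases were of unlike size, with Tnfaip3 and Birc3 more than 10-fold lower and the other 4 between 1.40-fold and 2.18-fold lower. In these bulk libraries, fewer cells that express a gene and less RNA per cell cannot be told apart.

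**Figure D1:**
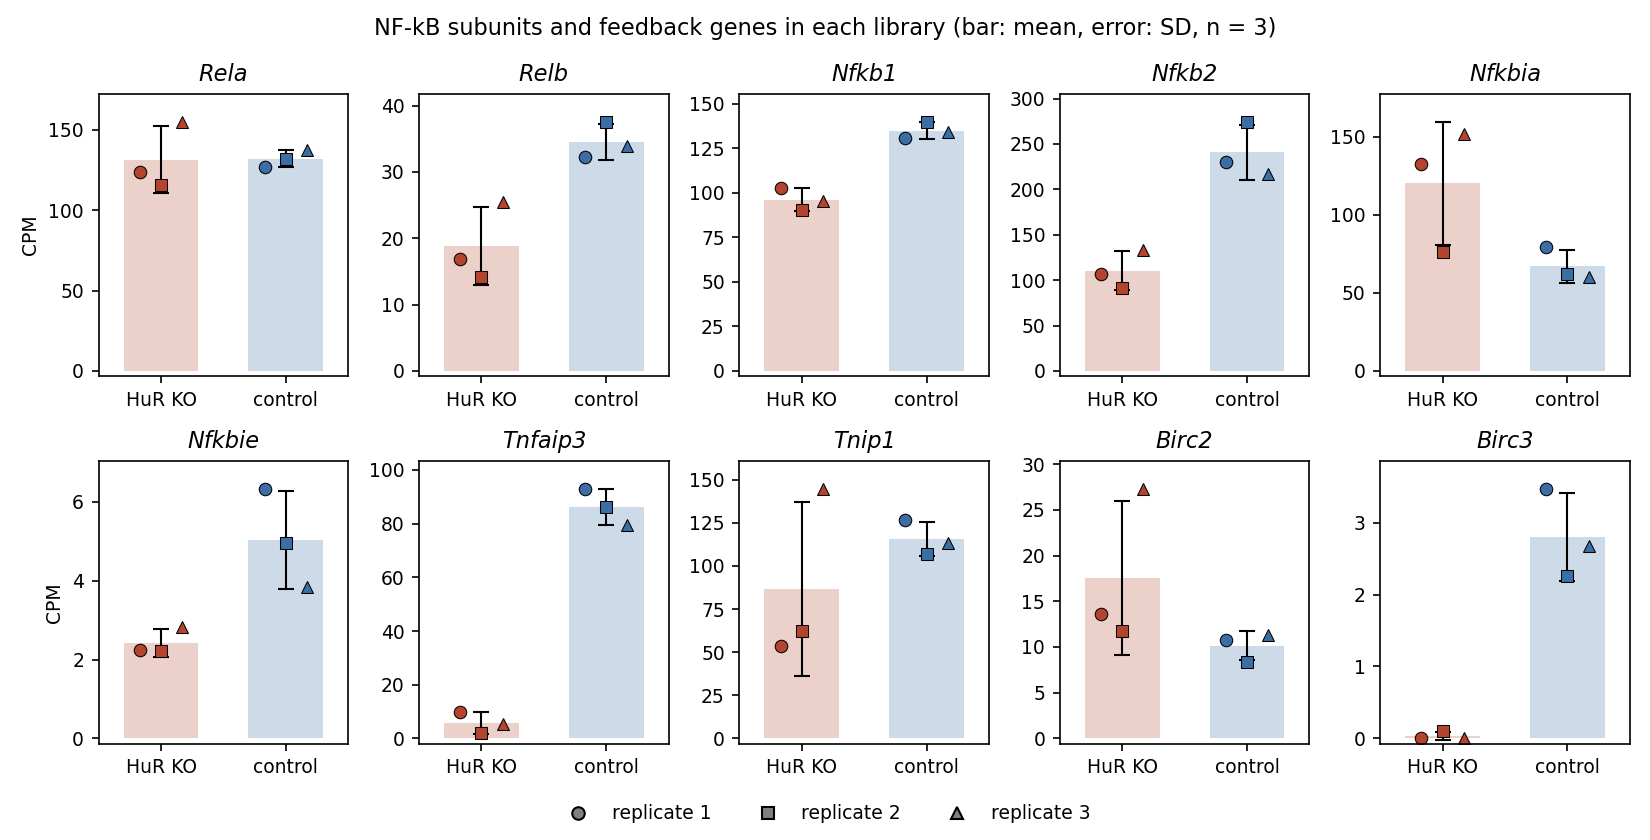
CPM of the 10 genes in each library, with HuR knockout left and control right; bars show the mean, error bars the SD (n = 3 each), and symbols the replicate number. Birc3 lay near 0 and Tnfaip3 at 1.91 to 9.81 CPM in the 3 knockout libraries. Nfkb2, Nfkb1, Relb and Nfkbie were below control without overlap, and Tnip1 and Birc2 had their highest value in knockout library 3.

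Among the subunits, 3 of 4 fell, and the gene of the canonical transactivating subunit RelA did not pass the test. Rela was at 123, 116 and 155 CPM in the knockout libraries and at 127, 132 and 137 CPM in the control libraries. The knockout values lay on both sides of control, with library 3 the highest of all 6. The means were 131 ± 20.8 CPM in knockout and 132 ± 5.19 CPM in control (SD, n = 3 each), with a log2 fold change of -0.01 (95% interval -0.35 to 0.34, edgeR adjusted p = 0.98). The interval allows a change of up to 1.27-fold lower or 1.26-fold higher.

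Nfkb1 encodes p105, the precursor of p50. It was at 103, 90.4 and 95.4 CPM in the knockout libraries and at 131, 140 and 134 CPM in the control libraries. The groups did not overlap, and the spread within each was narrow. Nfkb1 fell 1.40-fold in knockout, a log2 fold change of -0.49 (SE 0.11, 95% interval -0.75 to -0.22, edgeR adjusted p = 0.0158, n = 3 each). The call was lost without control library 1, 2 or 3 (edgeR adjusted p = 0.0524, 0.0688 and 0.0623), with log2 fold changes of -0.52, -0.49 and -0.52.

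Nfkb2 encodes p100, which is both the precursor of p52 and an inhibitor that retains RelB in the cytoplasm. It was at 106, 91.3 and 134 CPM in the knockout libraries and at 230, 274 and 217 CPM in the control libraries. The highest knockout library was still well below the lowest control library. Nfkb2 fell 2.18-fold (log2 fold change -1.12, SE 0.18, 95% interval -1.56 to -0.69, edgeR adjusted p = 0.00471, n = 3 each), and the call held in each of the 13 alternative analyses, where the log2 fold change ranged from -1.28 to -1.0.

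Relb was at 16.8, 14.2 and 25.4 CPM in the knockout libraries and at 32.2, 37.6 and 33.8 CPM in the control libraries. Knockout library 3 came nearest to control, without reaching it. Relb fell 1.84-fold (log2 fold change -0.88, SE 0.23, 95% interval -1.44 to -0.32, edgeR adjusted p = 0.0284, n = 3 each). The call was lost without knockout library 1 or 2 (edgeR adjusted p = 0.0691 and 0.0639) and without control library 1, 2 or 3 (edgeR adjusted p = 0.0704, 0.0967 and 0.0817). Without knockout library 3 the log2 fold change was -1.15.

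Of the IkB genes, Nfkbie fell and Nfkbia, with higher mean values in knockout, did not pass. Nfkbia, whose product IkB-alpha retains RelA dimers and is resynthesised as NF-kB activity rises, was at 133, 76.0 and 152 CPM in the knockout libraries and at 79.2, 62.1 and 60.0 CPM in the control libraries. Knockout libraries 1 and 3 stood above every control library, while knockout library 2 lay just below control library 1. The means were 120 ± 39.6 CPM in knockout and 67.1 ± 10.5 CPM in control (SD, n = 3 each). The log2 fold change was 0.84 (SE 0.27, 95% interval 0.19 to 1.49) and narrowly missed the threshold (edgeR adjusted p = 0.0511, unadjusted p = 0.0184). It passed without knockout library 2, with a log2 fold change of 1.09 (edgeR adjusted p = 0.0103), and with DESeq2, at 0.82 (adjusted p = 0.0213); over the 13 alternatives the adjusted p ranged from 0.0103 to 0.172.

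Nfkbie, which encodes IkB-epsilon, a slower feedback inhibitor, was at 2.23, 2.21 and 2.82 CPM in the knockout libraries and at 6.32, 4.96 and 3.83 CPM in the control libraries. These values rest on 41, 45 and 46 counts in knockout and on 135, 101 and 63 counts in control, and the groups did not overlap. Nfkbie fell 2.08-fold (log2 fold change -1.06, SE 0.30, 95% interval -1.77 to -0.35, edgeR adjusted p = 0.0323, n = 3 each). The call was lost without knockout library 1 or 2 (edgeR adjusted p = 0.0703 and 0.0855) and without control library 1, 2 or 3 (edgeR adjusted p = 0.117, 0.096 and 0.0553).

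Tnfaip3 had one of the 2 large decreases. A20, its product, removes the ubiquitin chains through which TNF and interleukin-1 receptors activate the IKK kinases. Tnfaip3 was at 9.81, 1.91 and 5.45 CPM in the knockout libraries and at 92.8, 86.1 and 79.4 CPM in the control libraries. The 3 control libraries were close to each other, whereas the knockout libraries, all far lower, differed among themselves, with 180, 39 and 89 counts. Tnfaip3 fell 15.1-fold (95% interval 6.08-fold to 37.4-fold), a log2 fold change of -3.91 (SE 0.55, edgeR adjusted p = 0.00293, n = 3 each). Without knockout library 1, the highest of the 3, the log2 fold change was -4.56, and it lay between -4.00 and -3.49 without any other library; the call held in each of the 13 alternatives.

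Tnip1 encodes ABIN1, which binds ubiquitin chains and works with A20. It was at 53.3, 62.2 and 144 CPM in the knockout libraries and at 126, 107 and 113 CPM in the control libraries. Knockout libraries 1 and 2 lay below every control library and knockout library 3 above every one. The means were 86.7 ± 50.3 CPM in knockout and 116 ± 9.85 CPM in control (SD, n = 3 each), with a log2 fold change of -0.42 (SE 0.38, 95% interval -1.32 to 0.48, edgeR adjusted p = 0.422). Without knockout library 3 the log2 fold change was -1.0 (edgeR adjusted p = 0.000301), and over the 13 alternatives the adjusted p ranged from 0.000301 to 0.737. Whether Tnip1 is called thus turned on this library.

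Birc2 and Birc3 encode the neighbouring paralogues cIAP1 and cIAP2, ubiquitin ligases of the TNF receptor complex that also keep the non-canonical kinase NIK low. Birc3 is a classical NF-kB target. It had 0, 2 and 0 counts in knockout libraries 1, 2 and 3 and 74, 46 and 44 counts in control libraries 1, 2 and 3, which is 0, 0.098 and 0 CPM in knockout and 3.46, 2.26 and 2.67 CPM in control. A count of 0 allows up to 3 counts, or 0.164 and 0.184 CPM in knockout libraries 1 and 3. From the summed counts of each group Birc3 was 77.6 times lower in knockout (exact 95% counting interval 21.2 to 646), and it was called lower in the main test (edgeR adjusted p = 0.00205, n = 3 each) and in each of the 13 alternatives. Without knockout library 2, Birc3 was at 0 in the remaining knockout libraries and at least 32.6-fold lower against 3 counts over the group. The interval and the bound cover counting error only.

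Birc2 was at 13.6, 11.8 and 27.3 CPM in the knockout libraries and at 10.7, 8.35 and 11.4 CPM in the control libraries. Every knockout library lay above every control library, libraries 1 and 2 by a small margin and library 3 by a wide one. The means were 17.5 ± 8.46 CPM in knockout and 10.1 ± 1.59 CPM in control (SD, n = 3 each), with a log2 fold change of 0.79 (SE 0.35, 95% interval -0.05 to 1.63, edgeR adjusted p = 0.125). It did not pass in any of the 13 alternatives (adjusted p 0.0742 to 0.33), and without knockout library 3 the log2 fold change was 0.33. The paralogues resemble each other in sequence, and how the counting divided reads that match both is not given in the sources used here.

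**Figure D2:**
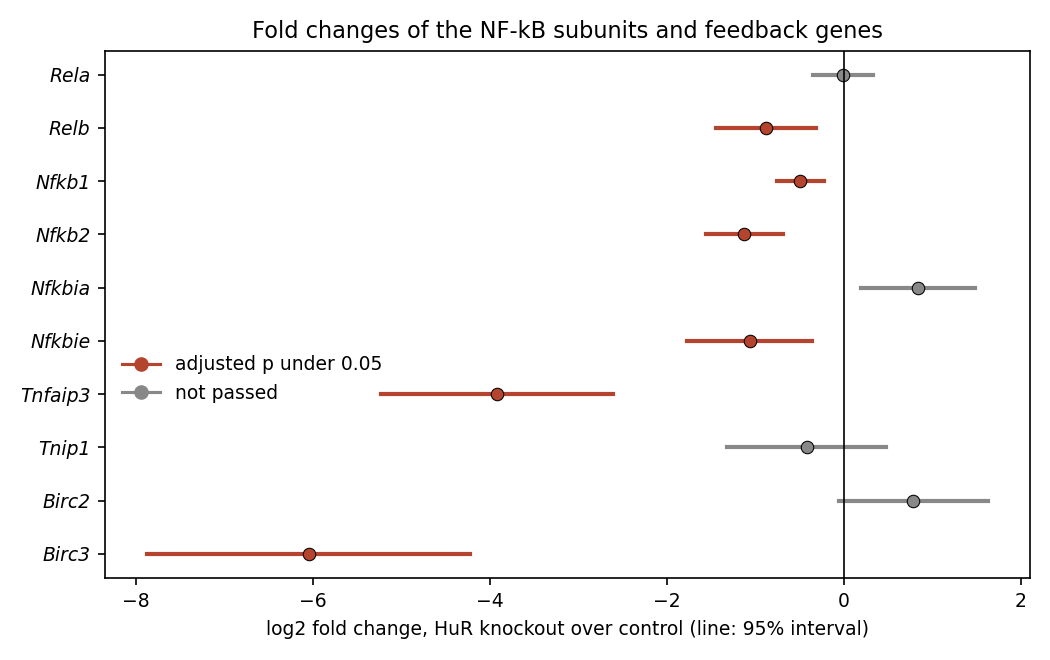
Log2 fold change of each gene, HuR knockout over control, with its 95% interval from edgeR's quasi-likelihood fit; red marks an adjusted p under 0.05. The 6 red intervals lie below 0, from Nfkb1 at -0.49 to Birc3 at -6.05, and the grey ones are those of Rela, Nfkbia, Tnip1 and Birc2.

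Ratios of 2 genes within a library do not depend on its depth, and 6 such ratios were compared. Each ratio separated the groups without overlap. Of all single genes tested, 27.9% lay apart lower in knockout and 29.7% apart higher, and no such share was worked out for ratios. The pairs were chosen with earlier results of these data known. With 3 libraries a group the exact two-sided permutation test cannot go below p = 0.1, the value it gave for each ratio, before and after adjustment over the 6. Relb had 13.6, 12.3 and 16.4 counts per 100 counts of Rela in knockout libraries 1, 2 and 3 and 25.5, 28.5 and 24.7 in control libraries 1, 2 and 3. The mean log2 ratio in knockout minus that in control was -0.90, and it ranged from -1.01 to -0.81 when 1 library was left out. Nfkb2 had 103, 101 and 140 counts per 100 of Nfkb1 in knockout and 176, 196 and 162 in control (difference -0.64 on the log2 scale, -0.80 to -0.56 with 1 library left out). The gene for the p52 precursor thus had fewer counts per count of the p50 precursor gene in every knockout library than in any control library. Nfkbia had 107, 65.6 and 98.2 counts per 100 of Rela in knockout and 62.5, 47.1 and 43.8 in control (difference 0.81), and Nfkbie had 1.69, 2.90 and 1.85 counts per 100 of Nfkbia in knockout and 7.98, 7.98 and 6.38 in control (difference -1.82).

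The ratio of the partners Tnfaip3 and Tnip1 was uneven among the knockout libraries. Tnfaip3 had 18.4, 3.07 and 3.77 counts per 100 of Tnip1 in knockout libraries 1, 2 and 3 and 73.4, 80.5 and 70.1 in control libraries 1, 2 and 3, a difference of -3.63 on the log2 scale. Without knockout library 1 this difference was -4.44. Of the 6 ratios, that of the cIAP genes had the largest difference: Birc3 had 0, 0.833 and 0 counts per 100 of Birc2 in knockout and 32.3, 27.1 and 23.5 in control. On the log2 scale with 0.5 added to each count the difference was -6.59, and with 2 added it was -5.07, so its size depends on the added count.

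**Figure D3:**
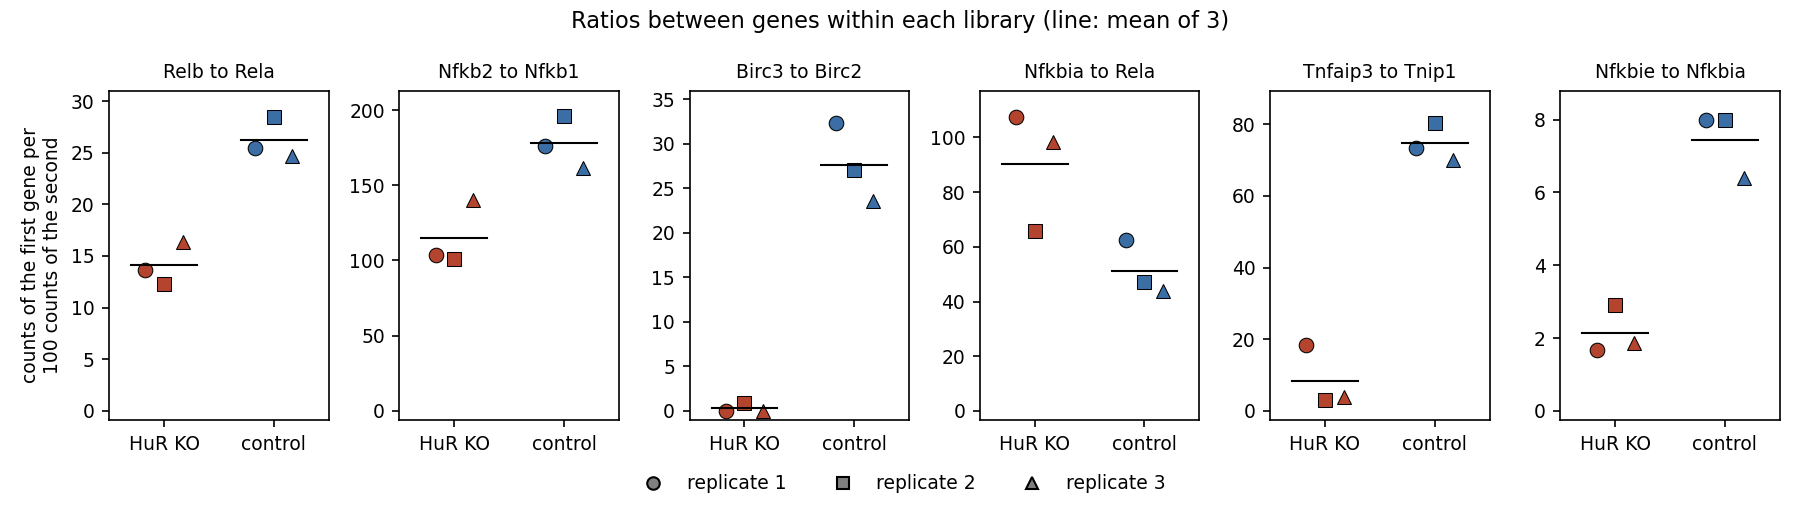
Counts of the first gene per 100 counts of the second in each library, for 6 pairs, with HuR knockout left and control right; symbols mark the replicate and lines the mean of 3. The ratio of Nfkbia to Rela was higher in knockout in all 3 libraries and the other 5 ratios were lower in all 3, with no overlap.

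The knockout libraries varied more than the control libraries. Over all genes tested, log2 CPM correlated at 0.924 to 0.978 between knockout libraries and at 0.987 to 0.992 between control libraries. The coefficient of variation of CPM was larger in knockout than in control for 9 of the 10 genes, Nfkbie being the exception. The share of all genes for which this held was not worked out. The coefficient was 58% in knockout and 8.52% in control for Tnip1, and 69.1% in knockout and 7.78% in control for Tnfaip3. Knockout library 3 was the highest of its group for 7 of the 10 genes (Rela, Relb, Nfkb2, Nfkbia, Nfkbie, Tnip1 and Birc2), library 1 for Nfkb1 and Tnfaip3, and library 2 for Birc3. Knockout library 2 was the lowest of the group for 8 of them. Without knockout library 3, 7 of the 10 genes fell (Tnip1 in addition), when 22.8% of all genes tested were lower. Without control library 1, 2 or 3, 3 of the 10 fell each time (Nfkb2, Tnfaip3 and Birc3), when 9.41%, 9.13% and 9% of all genes tested were lower. Without knockout library 1, 4 fell, when 15.1% of all genes tested were lower. Without knockout library 2, 4 fell and Nfkbia was called higher, when 11.7% of all genes tested were lower and 16.8% higher.

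Over the 6 libraries the log2 CPM of Nfkb1 and Tnfaip3 correlated at 0.985 and those of Nfkb2 and Relb at 0.971, while Nfkbia correlated at 0.843 with Birc2 and at -0.823 with Birc3 (Pearson's r). These values are descriptions over 6 points that share 2 groups, and the difference between the groups enters each of them. Among 10288 other genes averaging 5 CPM or more, the 5 whose log2 CPM followed Nfkbia most closely were Zfp623 (r = 0.997), Zfp746 (0.991), Slc22a4 (0.990), Mbip (0.986) and Rasa4 (0.983). All 5, like Nfkbia, were lower in knockout library 2 than in knockout libraries 1 and 3, which follows from how they were picked. With 6 points and 10288 candidates, values of r near these can arise from the picking alone.

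The genes around the loop were counted in 7 lists, drawn up with earlier results of these data known. A gene near 0 in one group entered the test through the other, so the counts and medians describe the genes tested. They stand beside 15.4% lower and 20.3% higher among all genes tested, and no list's share was tested against these. Of 7 other genes of the NF-kB and IkB families, 2 fell: Rel, which encodes the subunit c-Rel (log2 fold change -0.72), and Nkrf, which encodes a repressor of NF-kB targets (-0.86), with edgeR adjusted p = 0.0291 and 0.0255. Without control library 1, 2 or 3 neither was called (edgeR adjusted p = 0.0609, 0.0974 and 0.123 for Rel and 0.0623, 0.0954 and 0.0811 for Nkrf), nor was Rel without knockout library 1 or 2 (edgeR adjusted p = 0.0615 and 0.0642). The median of this list was -0.72. The atypical IkB genes Nfkbiz and Bcl3 had log2 fold changes of -1.20 and -0.84 and did not pass (edgeR adjusted p = 0.0774 and 0.104).

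Of 17 IKK complex genes and associated kinases, 4 fell, 13 did not pass and the median was -0.0037, where 15.4% of all genes tested were lower. The catalytic IKK genes Chuk and Ikbkb had log2 fold changes of -0.43 and -0.36, Tab3, an adaptor of the kinase TAK1, of -0.64, and the IKK-related kinase gene Ikbke of -1.23 (edgeR adjusted p = 0.0298, 0.0309, 0.0233 and 0.00511). Ikbke was the exception in keeping its call in every alternative, and without control library 1, 2 or 3 the list had 2, 1 and 1 genes lower. Without knockout library 1 or 2 it had 1 lower each, and without knockout library 2 also 1 higher. Over all genes tested, 9.41%, 9.13% and 9% were lower without control library 1, 2 or 3. Without knockout library 1 or 2, 15.1% and 11.7% were lower, and 16.8% were higher without knockout library 2. Chuk lost its call without any library but control library 1 or knockout library 3, and Ikbkb and Tab3 without any but knockout library 3 (edgeR adjusted p between 0.054 and 0.111). Map3k14, which encodes the kinase NIK that cIAP proteins restrain, was at 16.8 CPM in knockout and 14.8 CPM in control (log2 fold change 0.18, edgeR adjusted p = 0.565).

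Of 21 adaptor, TRAF and linear ubiquitin chain genes tested, 4 rose and 6 fell, with a median of -0.19, where 20.3% of all genes tested were higher and 15.4% lower. The share that rose was thus near that over all genes. The TNF receptor adaptor gene Traf5 and the Toll-like receptor adaptor gene Ticam1 rose (log2 fold changes 2.53 and 1.65), and Traf1, itself an NF-kB target, and Card10, a scaffold of the BCL10-MALT1 complex, fell (-2.40 and -1.01), with edgeR adjusted p between 0.000775 and 0.00337. These 4 calls held in every alternative. Without control library 1, 2 or 3 the list had 2 genes higher each time and 5, 4 and 4 lower. Then 12.1%, 9.29% and 9.78% of all genes tested were higher and 9.41%, 9.13% and 9% lower. The share of the list that rose was again near that over all genes. Of 15 deubiquitinases and other brakes, 4 fell, 11 did not pass and the median was -0.20. Zc3h12a, which encodes the RNase Regnase-1 that degrades inflammatory mRNAs, had a log2 fold change of -1.69, the deubiquitinase gene Otud7b of -0.61, the A20 partner Rnf11 of -0.48 and Tnip3, a relative of Tnip1, of -2.96 (edgeR adjusted p = 0.00642, 0.00775, 0.0391 and 0.043). Without any 1 control library, 2 of the 15 fell, since Rnf11 and Tnip3 lost their calls (edgeR adjusted p between 0.081 and 0.133). Rnf11 also lost it without knockout library 1 or 2 (0.0805 and 0.0983) and Tnip3 without knockout library 2 or 3 (0.0981 and 0.0592), and Tnip3 was at -4.84 without knockout library 1. With the counts as deposited, Tnip3 did not pass either (edgeR adjusted p = 0.0521), and 3 of the list fell. Without knockout library 2, 2 fell and 2 rose, and without knockout library 1, 3 fell and 2 rose. Over all genes tested, 11.7% were lower and 16.8% higher without knockout library 2. Without knockout library 1, 15.1% were lower and 20.2% higher.

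Of 17 receptor genes tested, 10 rose and 2 fell, with a median log2 fold change of 1.02. Of all genes tested, 20.3% were higher and 15.4% lower. Again 10 rose with DESeq2, without the divided rows and without knockout library 3, and 9 rose with limma-voom. With DESeq2's size factors, the counts as deposited or knockout library 1 left out, 8 of 17 rose. Another 2 settings had 8 of 19 (no filter on low counts) and 8 of 16 (without knockout library 2). In these settings 14.7% to 25.5% of all genes tested were higher. The TNF receptor genes Tnfrsf1a and Tnfrsf1b, the interleukin-1 receptor gene Il1r1 and the interleukin-17 receptor gene Il17rc rose, with log2 fold changes of 1.28, 1.74, 1.80 and 1.60 (edgeR adjusted p = 0.00407, 0.00364, 0.00237 and 0.000744), and kept their calls in every alternative. Tnfrsf1a was at 113, 122 and 181 CPM in the knockout libraries and at 57.3, 56.6 and 57.4 CPM in the control libraries. Without control library 1, 2 or 3 the list had 6, 7 and 6 genes higher and 1 lower each. Of all genes tested, 12.1%, 9.29% and 9.78% were then higher and 9.41%, 9.13% and 9% lower. The list had 1 lower without knockout library 2 and 4 lower without knockout library 3, beside 11.7% and 22.8% of all genes tested.

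Of 18 ligand genes, 7 had enough counts to test, and those of TNF and interleukin-1 beta did not: Tnf averaged 0 CPM in knockout and 0.0678 CPM in control, and Il1b 0 CPM in knockout and 0.155 CPM in control. Of the 7, 2 fell and 1 rose, and their median was -1.01. Il1a, which encodes interleukin-1 alpha, was at 9.21, 0.98 and 1.65 CPM in the knockout libraries and at 171, 50.4 and 83.1 CPM in the control libraries. It fell with a log2 fold change of -4.68 (edgeR adjusted p = 0.0108), and the call was lost without knockout library 3 (-4.34, edgeR adjusted p = 0.0529); without knockout library 1 the value was -6.28. Eda, which encodes ectodysplasin, fell (-4.37) and Il18 rose (1.97), with edgeR adjusted p = 0.00128 and 0.0149. Both had few counts. Eda had 9, 11 and 2 counts in the knockout libraries and 166, 158 and 151 in the control libraries. Il18 had 32, 27 and 24 counts in knockout and 10, 4 and 8 in control. Il18 lost its call without control library 2 or 3 (edgeR adjusted p = 0.0594 and 0.0565).

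Of 32 target genes outside the feedback loop, 26 were tested: 12 fell and 4 rose, with a median of -1.36. Nfkbiz, which did not pass, stood both in this list and among the NF-kB and IkB family genes. The decreases with the smallest p were those of the cytokine genes Il23a and Csf3, the cyclooxygenase gene Ptgs2 and the chemokine gene Ccl20. Their log2 fold changes lay between -6.86 and -1.99 and their calls held in every alternative. Ccl20 had 3, 0 and 1 counts in the knockout libraries and 136, 114 and 95 counts in the control libraries. The size of its decrease thus rests on few counts. Without knockout library 1 Csf3 was at -7.93 and Ccl20 at -7.44, and without knockout library 2 Ccl20 was at -5.61. The urokinase gene Plau, named after its values were seen, had a log2 fold change of -3.31 (edgeR adjusted p = 0.00253). The genes that rose were Bcl2l1, Csf1, Tnfaip2 and Tapbp (0.86, 1.31, 1.28 and 1.35), with edgeR adjusted p = 0.0191, 0.00292, 0.018 and 0.0422. Tapbp was at 59.6, 75.2 and 176 CPM in the knockout libraries and at 46.2, 35.3 and 40.1 CPM in the control libraries. Without control library 1, 2 or 3 the list had 10, 9 and 10 genes lower and 1 higher each. Then 9.41%, 9.13% and 9% of all genes tested were lower and 12.1%, 9.29% and 9.78% higher. Without knockout library 1, 2 or 3 it had 4, 5 and 3 genes higher, beside 20.2%, 16.8% and 25.5% of all genes tested.

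**Figure D4:**
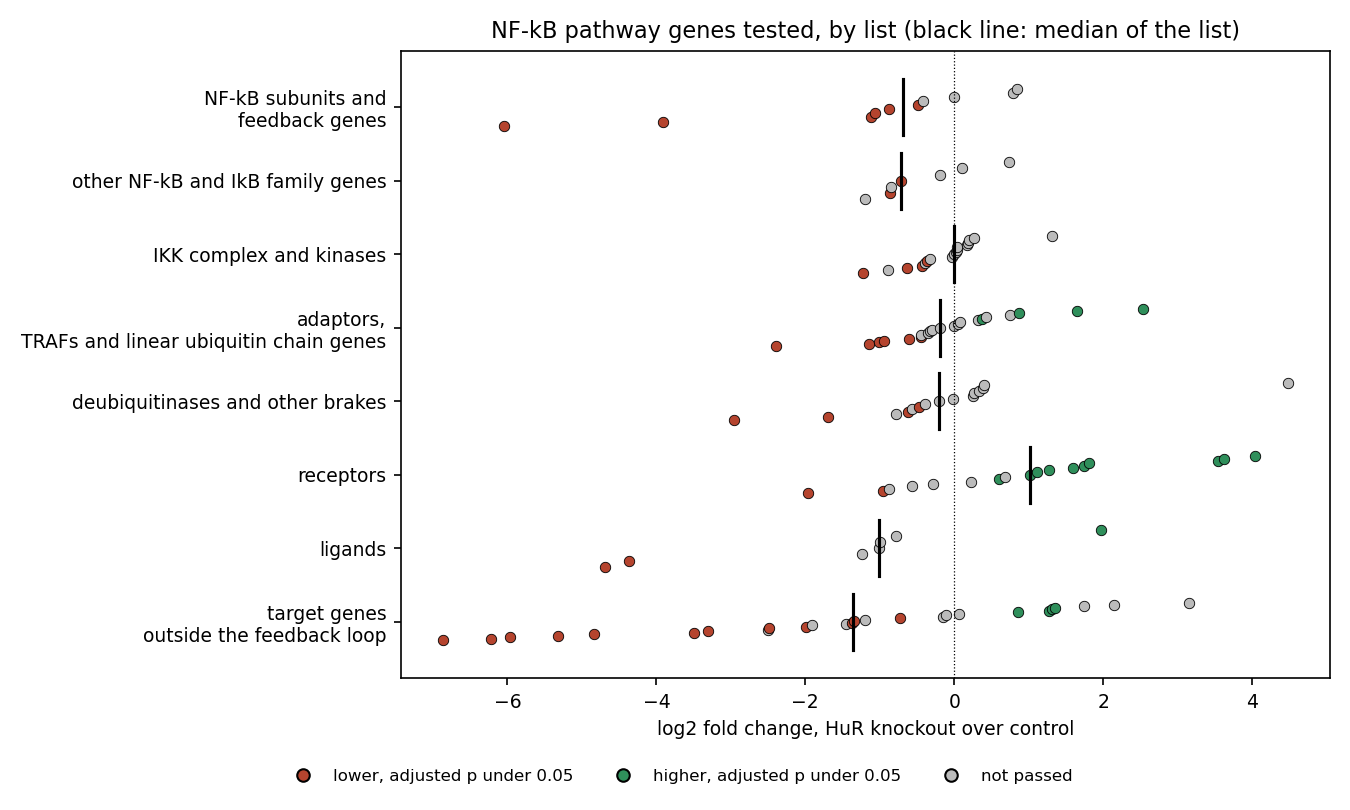
Log2 fold change, HuR knockout over control, of each NF-kB pathway gene tested, by list; red marks genes lower and green genes higher at an adjusted p under 0.05 by edgeR, grey those that did not pass, and black lines the list medians. The median of the subunits and feedback genes was -0.68 and that of the targets -1.36, while that of the receptors was 1.02.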

How the data were processed

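RNA was measured in 6 libraries of MOC2 cells, 3 HuR knockout and 3 control. The authors deposited whole-number counts per gene symbol; STAR 2.7.1a, featureCounts and hg38 are listed per the submitters' processing notes, and the sources used here do not give the annotation or strand setting. Libraries were mapped to groups by title and library name.

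In 1704 rows at 0 in control library 1 every value was a multiple of 11, and these rows were divided by 11. None of the 10 genes stood in such a row. The main test was edgeR 4.0.16 in R 4.3.3 (filterByExpr, TMM, robust quasi-likelihood fit, knockout against control), with Benjamini-Hochberg adjustment over 12293 genes and a threshold of 0.05. CPM use TMM-scaled totals. Standard errors were derived from each fold change and its F statistic. The procedure was tested on simulated data with far fewer changed genes than were called here and with no library set apart from its group. That test therefore does not show how the procedure behaves on these data. The 13 alternatives used DESeq2 1.42.0, its size factors in edgeR, limma 3.58.1 (voom), no filter on low counts, counts as deposited, the table without the divided rows, a replicate block and the omission of each library. No 2 libraries of a group agreed within sampling noise (chi-square over genes).

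The 10 genes, the lists and the tests were chosen with earlier results of these data known. Named were the 10 genes, Elavl1, the 5 genes most like Nfkbia, and from each list the 4 called genes with the smallest p; other list genes were picked after their values were seen. Genome positions and sequences of the mouse genes were not analysed here.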

Additional observations from a re-analysis of the deposited data

How the results depend on the processing

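Nfkb2, Tnfaip3 and Birc3 kept their direction and call in all 13 alternatives. The 6 genes lower in HuR knockout were also called lower by DESeq2, limma-voom, DESeq2's size factors, no filter, the counts as deposited and the table without the divided rows. In these settings 12.1% to 20% of all genes tested were lower. DESeq2 called 1 of the 10 genes higher (Nfkbia), and 23.1% of all genes it tested. With 1 library left out, between 3 and 7 of the 10 fell and 0 to 1 rose. Of all genes tested, 9% to 22.8% were then lower and 9.29% to 25.5% higher. In all, 2312 to 6021 genes changed, against 4392 with all libraries, and why fewer genes passed was not tested. Rela, close to 0 throughout, had log2 fold changes of -0.14 to 0.079 with 1 library left out, above 0 without knockout library 1 or 2 (0.036 and 0.079), and Elavl1 had -0.089 to 0.0061, above 0 without knockout library 3. The shared replicate numbers did not pair the libraries (correlation of same-numbered deviations -0.05, 0.26 and 0.02 for numbers 1, 2 and 3). With the replicate block 3591 genes changed and 4 of the 10 fell, Nfkb1 and Nfkbie no longer passing (adjusted p = 0.0528 and 0.0827). Of all genes tested, 13.1% were then lower and 16.1% higher. Of the named list genes, Rel, Chuk, Ikbkb and Rnf11 did not pass with the block (adjusted p = 0.0722, 0.0751, 0.0878 and 0.0847). With the block 2 of the 17 IKK complex genes and kinases fell, against 4 without it, and 4 of the 7 ligand genes fell, against 2 without it. Of the 17 receptor genes, 7 rose with the block, against 10 without it. Depth limits Birc3, with at most 2 counts in a knockout library, and also Nfkbie, with 41 to 46, and Tnfaip3, with 39 in knockout library 2. It also limits list genes such as Ccl20, with 0 to 3 counts in knockout, Eda, with 2 to 11 in knockout, and Il18, with 4 to 10 in control.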
